A study of Mus musculus with 44 samples.

Results

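The genes described here encode the protein subunits of the mitochondrial respiratory chain and of ATP synthase, measured in the mouse dorsal hippocampus. The members were every protein-coding gene of the mitochondrial genome, together with the protein-coding nuclear genes whose symbols name a subunit of complex I (Nduf), complex II (Sdh), complex III (Uqcr and Cyc1), complex IV (Cox4 to Cox8) or ATP synthase (Atp5, complex V). This rule took 101 of the 27179 genes counted, 13 of them mitochondrial and 88 nuclear, and it left out 5 pseudogenes. Complex I has 7 mitochondrial and 40 nuclear members. Complex II has only nuclear members, 4 in all. Complex III has 1 mitochondrial and 9 nuclear members, complex IV has 3 and 18, and ATP synthase has 2 and 17.

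The respiratory chain passes electrons from NADH (complex I) and succinate (complex II) through complex III and cytochrome c to oxygen (complex IV), and ATP synthase uses the proton gradient so built. Mitochondrial genes are transcribed inside the organelle as long transcripts from both strands, which are then cut into single mRNAs, whereas nuclear subunit genes are transcribed 1 by 1 in the nucleus. Neurons draw most of their ATP from this chain, and the 2 genomes must supply subunits to the same complexes.

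RNA was sequenced from 36 mice in 6 groups of 6, with 3 mice labelled male and 3 labelled female in each group. Wild-type (WT) mice were compared with Kdm5bDARID/DARID mice ("mutant"), in which exons that encode the ARID domain and a piece of the JmjN domain of the H3K4 demethylase Kdm5b are deleted throughout the body. All mice carried a mixed C57BL/6J and 129S2/Sv background and were 7 to 8 weeks old. Within each genotype, mice were taken from the home cage without training (0 h), or 1 h or 3 h after contextual fear conditioning with 3 foot shocks. A library came from 1 mouse, so the spread between libraries includes the spread between mice.

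Libraries held 40274435 to 107000233 counts, with a median of 66549999. The Kdm5b count covers the whole gene, the undeleted exons included, so it does not check the deletion: its difference over all times was −0.08 ± 0.02 (log2, SE; adjusted p = 0.058 by the edgeR quasi-likelihood test). Y-linked and Xist counts went against the sex label in 2 libraries, WT 1 h male 1 and mutant 3 h female 2, which stayed under their labels. Markers of hippocampal neurons summed to between 8161 and 11432 CPM (counts scaled to library size, with TMM factors) in every library. Choroid plexus markers, from a tissue next to the dissected one, ran from 174 to 11943 CPM.

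Levels between genes were compared as CPM per kb of exon (mean ± SD over 36 libraries). The length joins the exons of all annotated transcripts of a gene, so the order of genes depends on that annotation. Among the mitochondrial genes, mt-Co1, the catalytic subunit of complex IV, was highest at 8061 ± 783. It was followed by mt-Cytb, the cytochrome b of complex III, at 4783 ± 445, and by mt-Nd1 at 4755 (3945 to 5784 over libraries), which did not differ from each other beyond their spread. The complex I membrane subunits mt-Nd2 (3026 ± 296), mt-Nd4 (2185 ± 254), mt-Nd6 (1691 ± 262) and mt-Nd5 (1678 ± 216) completed a group of 7 genes with a median above 10000 counts per library. The other 6 genes were far lower. mt-Nd3 stood at 61.5 ± 57.5, mt-Co2 at 34.8 ± 9.69, mt-Co3 at 27.9 ± 7.92, mt-Atp6 at 24.3 ± 9.11, mt-Nd4l at 14.8 ± 6.97 and mt-Atp8 at 3.21 ± 0.961. Subunits of the same complex IV, encoded on the same molecule, differed by far more than their spread between libraries.

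Of the 6 low mitochondrial genes, 5 have an annotated near-identical nuclear copy. A run of mitochondrial sequence lies on chromosome 1 of GRCm38 at chr1:24611535-24616197, on the minus strand, and is annotated there as a row of separate pseudogenes. It matched mt-Nd4l, mt-Nd3, mt-Co3, mt-Atp6 and mt-Co2 without a mismatch over 98.3% to 99.9% of each gene. mt-Atp8 lies between mt-Co2 and mt-Atp6, and the stretch of the run between their copies holds no annotated transcript, so it was not compared. The run covered 63.6% of mt-Nd4 without a mismatch and 31.3% of mt-Co1 with 1 mismatch. Stretches of mt-Co2 and mt-Co1 are also held by a further annotated copy each, Gm13341 and Gm13340. Reads from these genes fit more than 1 place in the genome, so their level depends on how such reads were counted, which the sources used here do not state. The part of the copy in the low levels was not tested. mt-Nd5 and mt-Nd6 overlap on opposite strands, over 0.77% of mt-Nd5 and 2.7% of mt-Nd6, and without a stated strand setting their reads cannot be told apart there.

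Per kb of exon, the 2 highest nuclear members were small subunits of complex IV, although the median of its nuclear members was the lowest of the 5 complexes. The order depends on the length: in CPM, Atp5b (1013) and Atp5a1 (830) lay above Cox8a (319) and Cox6a1 (282). Cox8a and Cox6a1 stood at 515 ± 43.7 and 401 ± 27.6 CPM per kb, followed by the ATP synthase subunits Atp5a1 (265, the catalytic core's alpha subunit) and Atp5b (239, its beta subunit) and by Cox4i1 (231 ± 13). Of the complex II subunits, the flavoprotein Sdha stood at 89.6 ± 2.99, the iron-sulfur subunit Sdhb at 42.4 ± 2.23 and the membrane anchor Sdhc at 26.1 ± 1.97. In complex III, the Rieske protein Uqcrfs1 stood at 84.5 ± 4.14, the core proteins Uqcrc2 and Uqcrc1 at 67.3 ± 2.66 and 49.7 ± 2.02, and cytochrome c1 (Cyc1) at 61.4 ± 2.99. In CPM the order was another, with Uqcrc1 (206) above Uqcrc2 (172), Cyc1 (132) and Uqcrfs1 (115). In complex I, the core subunits Ndufv1 (52.7 ± 2.71), Ndufv2 (47.1 ± 2.17) and Ndufs8 (43.4 ± 2.66) lay above Ndufs1 (14.7 ± 0.497) per kb of exon. In CPM, Ndufs1 (119) lay below Ndufv1 (139) but above Ndufv2 (101) and Ndufs8 (56.1). Medians of the nuclear members were 39.8 in complex I, 34.3 in complex II, 61.4 in complex III, 27.5 in complex IV and 44.3 in ATP synthase.

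**Figure D1:**
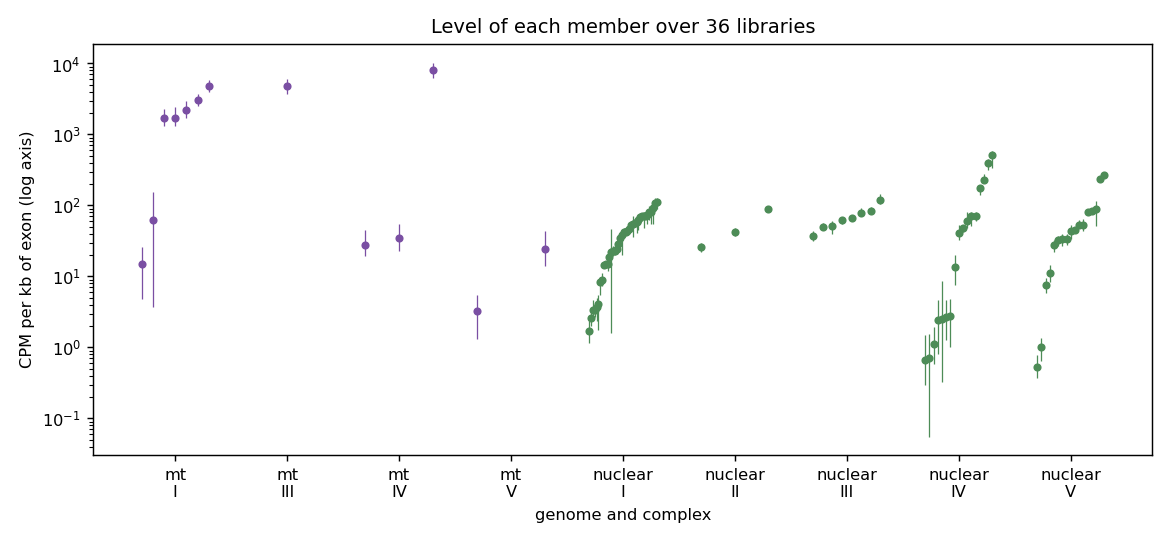
Mean level of each member in CPM per kb of exon (log axis), by genome and complex, with whiskers from the lowest to the highest of the 36 libraries. The 7 abundant mitochondrial genes lie above 1000, the other 6 below 100, and nuclear members reach 515; Sdhd, Uqcr11 and Cox8c, which were not tested, are not drawn, nor are members without an exon length.

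Several subunits exist as alternative isoforms, and in each such pair 1 isoform dominated. Cox4i1 stood at 231 against 1.11 ± 0.325 CPM per kb for Cox4i2, the isoform known from the lung. Cox6a1 stood at 401 against 2.73 ± 1.00 for Cox6a2, which is known from heart and skeletal muscle, and Cox6b1 at 176 ± 11.9 against 2.42 ± 0.818 for the testis isoform Cox6b2. Cox7b stood at 71.1 ± 4.94 against 0.699 ± 0.446 for Cox7b2, Cox8a at 515 against 2.49 ± 2.30 for Cox8b, and Ndufa4 at 110 ± 6.89 against 1.69 ± 0.257 for Ndufa4l2. Of the 3 genes that encode subunit c of the ATP synthase ring, Atp5g3 was highest at 80.9, followed by Atp5g1 at 7.58 and Atp5g2 at 1.00.

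Some subunits that every respiring cell uses had almost no counts. Sdhd, the second membrane anchor of complex II, had a median of 2 counts per library (0 to 9), against 3833 to 9843 for its partner Sdhc. Uqcr11, of complex III, had a median of 0 counts (0 to 3). Cox7a2, the widely used isoform of its subunit, had 20 to 86 counts, so Cox7a1, the muscle isoform, stood above it at 2.68 ± 0.764 against 0.666 ± 0.249 CPM per kb. No stretch of 100 bases of these 3 transcripts was found in another annotated transcript. The cause of the low counts was not tested, and they are not read as low expression. Cox8c had 0 counts in all libraries, which allows up to 3 counts per library. Atp5l, whose level was 0.54 CPM per kb, shared 69.0% of its 100-base stretches with other annotated transcripts. Sdhd, Uqcr11 and Cox8c did not pass the filter on low counts, so 98 members were tested, 13 mitochondrial and 85 nuclear.

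Most nuclear members varied less between mice than the mitochondrial genes. The coefficient of variation over the 36 libraries had a median of 7.91% (3.33% to 92.2%) among the 85 tested nuclear members. It was highest for Cox8b (92.2%) and Cox7b2 (63.8%), which are near the lowest levels, and for Ndufs5 (57.5%), and was lowest for Sdha (3.33%), Atp5a1 (3.34%) and Ndufs1 (3.39%). It had a median of 10.5% (9.31% to 15.5%) among the 7 abundant mitochondrial genes and of 33.7% (27.8% to 93.5%) among the other 6.

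mt-Nd3 did not vary around a mean but fell into separate ranges. In 18 libraries it had 90 to 240 counts and in the other 18 it had 1345 to 4229, with no library between. The higher range held 3, 3 and 4 of the 6 WT mice at 0, 1 and 3 h, and 1, 4 and 3 of the mutants, so both ranges occurred in every group. mt-Nd4l, which follows close by on the mitochondrial genome, moved with it: the correlation of their log2 levels within groups was 0.96 over 36 libraries. mt-Co2, mt-Co3 and mt-Atp6 moved together in a pattern of their own, with correlations of 0.94 to 0.95. Among the abundant genes the correlation was 0.94 for mt-Nd1 and mt-Nd2, 0.94 for mt-Co1 and mt-Cytb, 0.93 for mt-Nd5 and mt-Nd6, and 0.42 for mt-Nd1 and mt-Nd6. These correlations are descriptions of libraries that share their scaling, and no test was made of them.

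Ndufs5, an accessory subunit of complex I on chromosome 4 (chr4:123712710-123718186), also fell into separate ranges. Its processed copy Ndufs5-ps lies on chromosome 16 (chr16:42955631-42955949). The aligned stretch of 319 bases is 99.4% identical and differs at 2 positions, T81C and A105G, counted from 1 at the start of the aligned stretch with the base of Ndufs5 first. Positions 66 to 120 of the stretch are shown because they hold both differences, which are in capitals.
Ndufs5: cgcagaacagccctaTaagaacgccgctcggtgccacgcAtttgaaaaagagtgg
Ndufs5-ps: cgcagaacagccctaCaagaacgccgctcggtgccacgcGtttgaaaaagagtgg

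The share of the summed level of the pair that was assigned to Ndufs5 took 3 ranges that did not overlap. It was 2.76% to 4.41% in 7 libraries, 34.2% to 39.5% in 22 and 70.5% to 75.3% in 7. The level of Ndufs5 was accordingly 1.4 to 2.2, 17.7 to 21.3 or 31.9 to 40.0 CPM. The lowest range held 2, 1 and 2 WT mice in order of time and 1, 1 and 0 mutants, and the highest range held 0, 2 and 0 WT mice and 2, 1 and 2 mutants. The sum of the pair stayed between 42.9 and 59.3 CPM in all 36 libraries. In WT mice it was 55.1 ± 2.71, 51.3 ± 1.88 and 51.2 ± 1.51 CPM in the order 0, 1 and 3 h (SD, n = 6). The mutants had 52.3 ± 4.17, 51.5 ± 2.59 and 48.7 ± 3.18 CPM. Differences of Ndufs5 alone between groups were therefore not read as expression. The cause of the split was not tested.

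**Figure D2:**
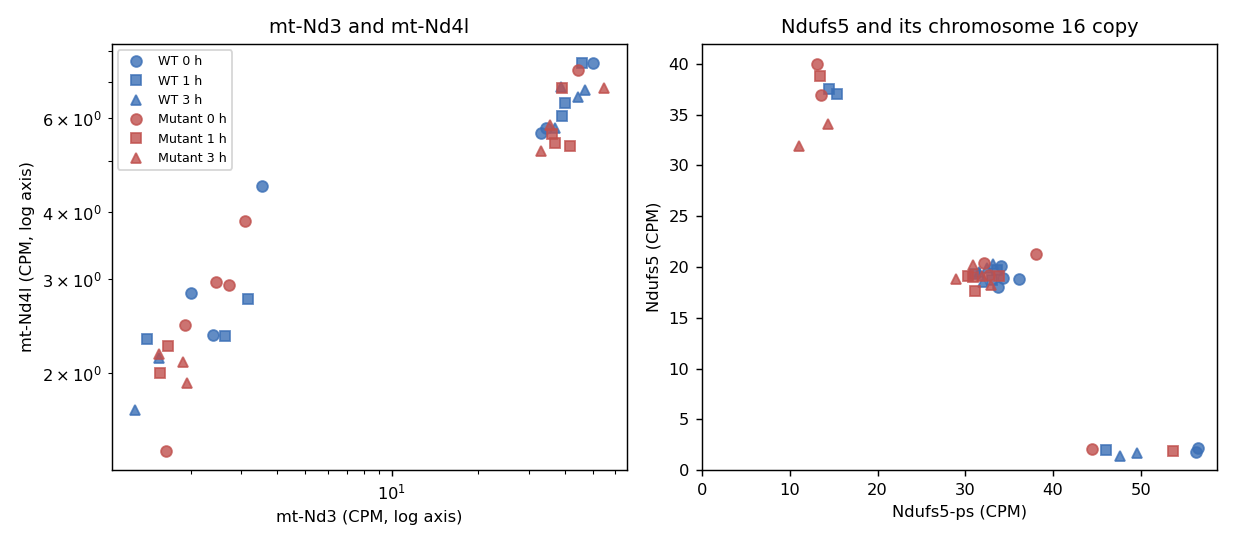
Left, CPM of mt-Nd3 and mt-Nd4l in each of the 36 libraries (both axes log); right, CPM of Ndufs5 against its chromosome 16 copy. Colours give the genotype and symbols the time; libraries of every group lie in both ranges of mt-Nd3, and Ndufs5 takes 3 ranges while the sum of the pair stays between 42.9 and 59.3 CPM.

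The 13 mitochondrial genes together took 3.05% to 3.45% of the counts by group mean. In WT the share was 3.35 ± 0.496%, 3.32 ± 0.162% and 3.26 ± 0.190% at 0, 1 and 3 h (SD, n = 6). In mutants it was 3.45 ± 0.254%, 3.05 ± 0.120% and 3.15 ± 0.274%. At 1 h the mutants (2.83% to 3.15%) lay below every WT library, the lowest of which was at 3.17%. In summed TMM-scaled CPM the genotypes overlapped at 1 h. Mutant male 1 (31774.5) lay above WT male 1 (31182.6) and WT female 1 (31521.8). The log2 difference of the share at 1 h was −0.121, with a pooled SD of 0.064 between libraries. The mutant difference of the share from 0 h to 1 h was −0.173 with a pooled SD of 0.086. Taken as the mean of log2 CPM over the 13 genes, which weights low genes equally, the latter was −0.0557. No test was made of the sums.

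The 88 nuclear members summed to 8837 ± 193, 8430 ± 251 and 8560 ± 224 CPM in WT and to 8602 ± 421, 8509 ± 323 and 8204 CPM (7508 to 8540) in mutants. The log2 ratio of the mitochondrial to the nuclear sum was 1.91, 1.98 and 1.94 in WT and 1.99, 1.85 and 1.93 in mutants, and the groups overlapped at each time.

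**Figure D3:**
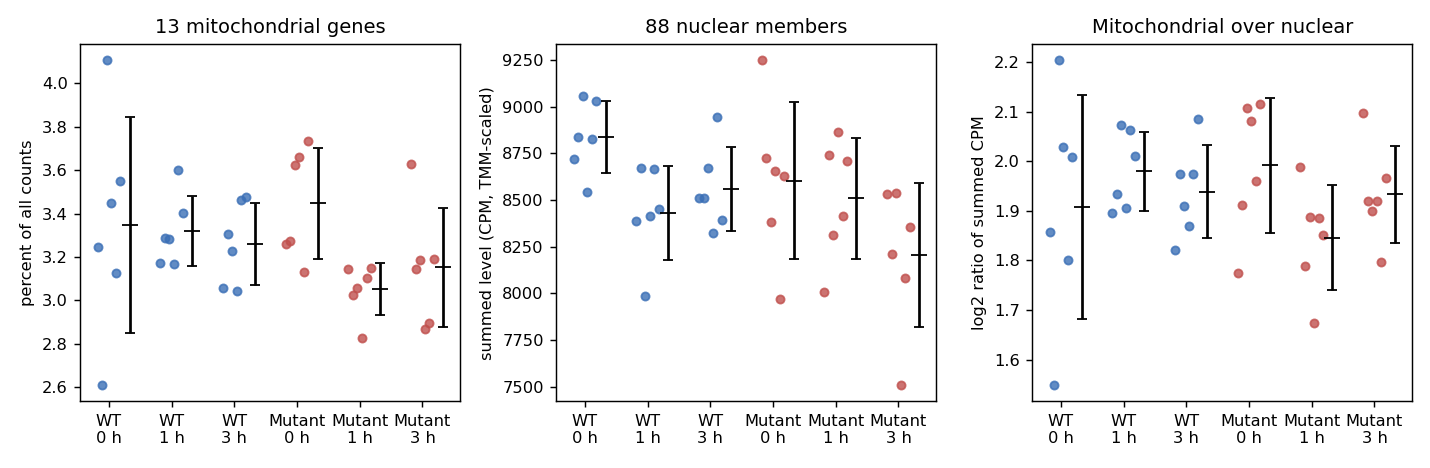
Share of counts on the 13 mitochondrial genes, summed CPM of the 88 nuclear members, and the log2 ratio of both sums, by library (points) with the mean ± SD of each group of 6. The mutants at 1 h lie at 2.83% to 3.15% in the left panel, below all WT libraries at 1 h. In summed TMM-scaled CPM of the mitochondrial genes, not drawn, the genotypes overlapped at 1 h. Axes do not start at 0.

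In naive mice, no member differed between genotypes by the edgeR quasi-likelihood test with sex as a covariate and Benjamini-Hochberg adjustment over all genes, and none by DESeq2 (0% of all genes passed in edgeR). The median log2 difference, mutant minus WT, was 0.01 over the mitochondrial and −0.06 over the nuclear members, against −0.00 over all genes. At an unadjusted p under 0.05, 8 of 85 nuclear members were lower in mutants and none higher, where 2.83% of all genes were lower. The smallest p-values belonged to the complex I subunit Ndufc1 (−0.22 ± 0.05, SE; adjusted p = 0.71), Sdhc (−0.19 ± 0.06) and the ATP synthase subunit Atp5j2 (−0.24 ± 0.07). The level of Ndufc1 was 36.8 to 40.1 CPM in WT libraries against 28.9 to 36.1 CPM in mutant ones, so the groups did not overlap. That of Sdhc was 88.2 to 94.3 CPM against 73.6 to 95.6 CPM. The upper end was a single library, mutant 0 h male 1, and without it the next highest mutant was at 80.0 CPM and Sdhc passed the test (adjusted p = 0.045). That fit called 5 of all genes, against 0 with all libraries. Striatal markers, from another neighbouring tissue, summed to 88 ± 27.6 CPM in the naive mutants, the highest mean of the 6 groups. All 10 choroid plexus markers were below their WT level in naive mutants, 1 of them at an unadjusted p under 0.05 (median −1.84), and all 8 oligodendrocyte markers were above it, none at that threshold (median 0.11). The part of these markers in the differences was not tested.

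At 1 h after training most mitochondrial genes were below their WT level in mutants, and about as many nuclear members were above as below it. The median difference was −0.13 over the mitochondrial members, with 12 of 13 below 0, and 0.01 over the nuclear members, with 48 of 85 above 0. No member passed adjustment in edgeR (0% of all genes passed) or DESeq2. At an unadjusted p under 0.05, 9 of 13 mitochondrial members were lower, where 4.28% of all genes were lower. The 9 are not independent, since these genes share transcripts and moved together between libraries. Of the nuclear members 4 were higher and 2 lower at that threshold, where 4.33% of all genes were higher. mt-Nd6 had the smallest p (−0.24 ± 0.07; adjusted p = 0.35), with 682 to 817 CPM in mutants and 787 to 1099 in WT. mt-Atp6 (−0.67 ± 0.21) had 10.7 to 14.8 CPM in mutants and 12.7 to 28.7 in WT. Ndufs3, a core subunit of complex I, had the other sign (0.13 ± 0.04), with 48.2 to 54.9 CPM in mutants and 43.6 to 49.7 in WT. The 2 mitochondrial rRNAs, which are not members, showed the same sign as the mitochondrial mRNAs (mt-Rnr1 −0.25, mt-Rnr2 −0.28, both at an unadjusted p under 0.05). All 10 choroid plexus markers were lower in mutants at 1 h, 6 of them at an unadjusted p under 0.05, with a median of −2.09, and their part was not tested.

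At 3 h, most members of both sets were below their WT level in mutants. The median was −0.10 over the mitochondrial and −0.06 over the nuclear members, with 71 of 85 nuclear members below 0. With 1 library left out, these medians were −0.147 to −0.062 and −0.076 to −0.038. No member passed adjustment in edgeR or DESeq2, and 0.0115% of all genes passed in edgeR. At an unadjusted p under 0.05, 9 nuclear members were lower and none higher, where 3.09% of all genes were lower, and 1 mitochondrial member was lower and 1 higher. The first 3 were Uqcr10 of complex III (−0.13 ± 0.04; adjusted p = 0.67), the ATP synthase stalk subunit Atp5o (−0.15 ± 0.04) and Ndufb11 of complex I (−0.14 ± 0.05). WT libraries held 66.5 to 76.2 CPM of Uqcr10 against 62.3 to 68.3 in mutants, and 106 to 123 CPM of Atp5o against 94.6 to 105. All 8 oligodendrocyte markers were above their WT level in mutants at 3 h (median 0.26) and all 10 choroid plexus markers below it (median −0.63), none at an unadjusted p under 0.05, and their part was not tested.

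With all 3 times pooled, 2 members were lower in mutants, where 1.3% of all genes passed. Sdhc, the complex II anchor (chr1:171129157-171150640), was lower by −0.12 ± 0.03 (adjusted p = 0.025). Atp5o (chr16:91925223-91931630) was lower by −0.11 ± 0.03 (adjusted p = 0.029). By time, Sdhc differed by −0.19, −0.10 and −0.09 at 0, 1 and 3 h, and Atp5o by −0.13, −0.04 and −0.15, all below 0. Sdhc stood at 91.6 ± 2.34, 86.4 ± 3.76 and 87.8 ± 5.83 CPM in WT and at 80.5 ± 7.82, 80.8 ± 3.99 and 82.5 ± 6.26 in mutants, and the genotypes overlapped at each time. Atp5o stood at 112 ± 4.53, 105 ± 3.00 and 111 ± 6.56 CPM in WT and at 103 ± 9.0, 102 ± 3.69 and 99.3 ± 4.06 in mutants, and did not overlap at 3 h.

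Sdhc passed in each fit that left out 1 library, whereas Atp5o did not pass without mutant 0 h male 3 (adjusted p = 0.051). Of Atp5o, 47.9% of the exon bases lie under other gene models, namely D430001F17Rik, Gm15976 and another model that is also named Atp5o. Some of its reads may belong to D430001F17Rik or Gm15976. The part of each model in the 47.9% was not separated. Kdm5b lies on chromosome 1, as does Sdhc; the chromosome 1 members Cox5b (0.01), Ndufb3 (−0.01), Ndufs1 (0.02) and Ndufa10 (−0.00) did not pass.

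Of all 85 nuclear members, 13 were lower and 1 higher at an unadjusted p under 0.05, where 7.72% of all genes were lower. The median was −0.03 over the nuclear and −0.07 over the mitochondrial members, against 0.00 over all genes. Cox5a, a subunit of complex IV, came next (−0.08 ± 0.02; adjusted p = 0.057). ATP synthase held the most of the 13, with 5 of 17, followed by complex IV with 4 of 17, complex I with 2 of 40, and complexes II and III with 1 each. Choroid plexus markers moved with genotype: all 10 were lower in mutants at an unadjusted p under 0.05 with a median of −1.60, and their summed level had means of 3708, 2308 and 4009 CPM in WT and 1034, 640.5 and 2285 CPM in mutants. Of the other marker lists, 1 of 8 astrocyte and 1 of 12 hippocampal neuron markers passed, both higher in mutants. The part of these markers in the member differences was not tested. In bulk tissue, fewer cells of a type and less RNA per cell cannot be told apart.

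In WT mice, most nuclear members were below their naive level 1 h after training, and the median of the mitochondrial genes was near 0. Of the nuclear members, 81 of 85 were below their naive level, with a median of −0.09 against −0.01 over all genes, and 23 were lower at an unadjusted p under 0.05, where 2.44% of all genes were lower. None passed adjustment in edgeR (0% of all genes passed) or DESeq2. ATP synthase had 7 of 17 members at that threshold, complex I 11 of 40, complex IV 3 of 17, and complexes II and III 1 each. Ndufc1 (−0.17 ± 0.06; adjusted p = 0.92), Ndufb3 (−0.13 ± 0.05) and Cox6c (−0.22 ± 0.08) came first. Ndufc1 had 28.9 to 36.5 CPM at 1 h, below the 36.8 to 40.1 of the naive mice. The median of the mitochondrial members was −0.00, with 5 above and 8 below 0 and none at an unadjusted p under 0.05.

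At 3 h in WT, 70 of 85 nuclear members were below their naive level (median −0.06), and 19 were lower and 1 higher at an unadjusted p under 0.05, where 3.66% of all genes were lower. None passed in edgeR (0% of all genes passed), and Atp5j alone passed in DESeq2. Atp5j, the coupling factor 6 of ATP synthase (−0.15 ± 0.04; adjusted p = 0.42 in edgeR), had 95.3 to 104 CPM at 3 h and 102 to 114 at 0 h. Ndufc1 (−0.16 ± 0.04) and Cox6b1 (−0.14 ± 0.04) followed. The mitochondrial median was −0.05, with mt-Atp8 lower at an unadjusted p under 0.05. Between 1 and 3 h in WT, 55 of 85 nuclear members were higher at 3 h (median 0.02), and Ndufs7 and Ndufs3, core subunits of complex I (both 0.11 ± 0.04; adjusted p = 0.56 and 0.57), were the only members at an unadjusted p under 0.05, where 3.17% of all genes were higher. No member passed adjustment in edgeR (0% of all genes passed) or DESeq2. The third was Ndufb7 (0.12 ± 0.06). Between these times 7 of 8 microglia markers were lower, 4 of them at an unadjusted p under 0.05 (median −0.13), as were both mitochondrial rRNAs (median −0.28), and their part was not tested.

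In mutants, most mitochondrial genes were below their naive level 1 h after training, and mt-Nd6 passed the test. mt-Nd6, the complex I subunit on the light strand of the mitochondrial genome (positions 13552 to 14070), fell by 0.38 ± 0.06 on the log2 scale (adjusted p = 0.020), where 0.312% of all genes passed. It stood at 978 ± 97.6 CPM (871 to 1113) in naive mutants and at 754 ± 50.5 (682 to 817) at 1 h, and these groups did not overlap. In WT it stood at 969 ± 185, 893 ± 110 and 857 ± 111 CPM at 0, 1 and 3 h, and in mutants at 3 h at 814 ± 111. The call rested on single libraries: it was lost without any 1 of mutant 0 h male 3, 0 h female 3, 1 h male 3, 1 h female 1 or 1 h female 3, with an adjusted p of 0.054 to 0.067. It was also lost with all 36 libraries in 1 fit (adjusted p = 0.12).

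Of the 13 mitochondrial members 9 were lower at an unadjusted p under 0.05, with a median of −0.15, where 4.84% of all genes were lower. Of the nuclear members 2 were lower (median −0.02). The next mitochondrial genes were mt-Nd5 (−0.28 ± 0.07; adjusted p = 0.14), and mt-Co3 (−0.52 ± 0.16; adjusted p = 0.23). mt-Nd5 ran from 2785 to 3733 CPM at 0 h and from 2532 to 2956 at 1 h. DESeq2 called 4 members here, mt-Nd6, mt-Nd5, mt-Co2 and mt-Co3. Striatal markers moved too: 7 of 8 were below their level in naive mutants, 3 of them at an unadjusted p under 0.05, with a median of −0.33. Their part was not tested.

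At 3 h in mutants, 10 of 13 mitochondrial members (median −0.14) and 68 of 85 nuclear members (median −0.07) were below their naive level. At an unadjusted p under 0.05, 4 mitochondrial and 8 nuclear members were lower and 1 nuclear member was higher, where 3.68% of all genes were lower. None passed in edgeR (0% of all genes passed), and mt-Co2 and mt-Co3 passed in DESeq2. mt-Co3 (−0.57 ± 0.16; adjusted p = 0.36), mt-Atp6 (−0.79 ± 0.23) and mt-Co2 (−0.54 ± 0.16), all in the stretch with the chromosome 1 copy, came first. mt-Co3 had 15.2 to 20.6 CPM at 3 h and 18 to 34.1 at 0 h. Between 1 and 3 h in mutants, 73 of 85 nuclear members were lower at 3 h (median −0.05, and −0.08 to −0.02 with 1 library left out). At an unadjusted p under 0.05 these were Uqcr10 (−0.12 ± 0.05; adjusted p = 0.58), Ndufc1 (−0.15 ± 0.06) and the ATP synthase subunit Atp5md (−0.15 ± 0.07), 3 of 85, where 3.75% of all genes were lower. No member passed in edgeR (0% of all genes passed) or DESeq2. From 0 to 3 h all 8 striatal markers were lower, 2 of them at an unadjusted p under 0.05 (median −0.36). From 1 to 3 h all 10 choroid plexus markers were higher, 6 of them at that threshold (median 2.00). Their part was not tested.

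**Figure D4:**
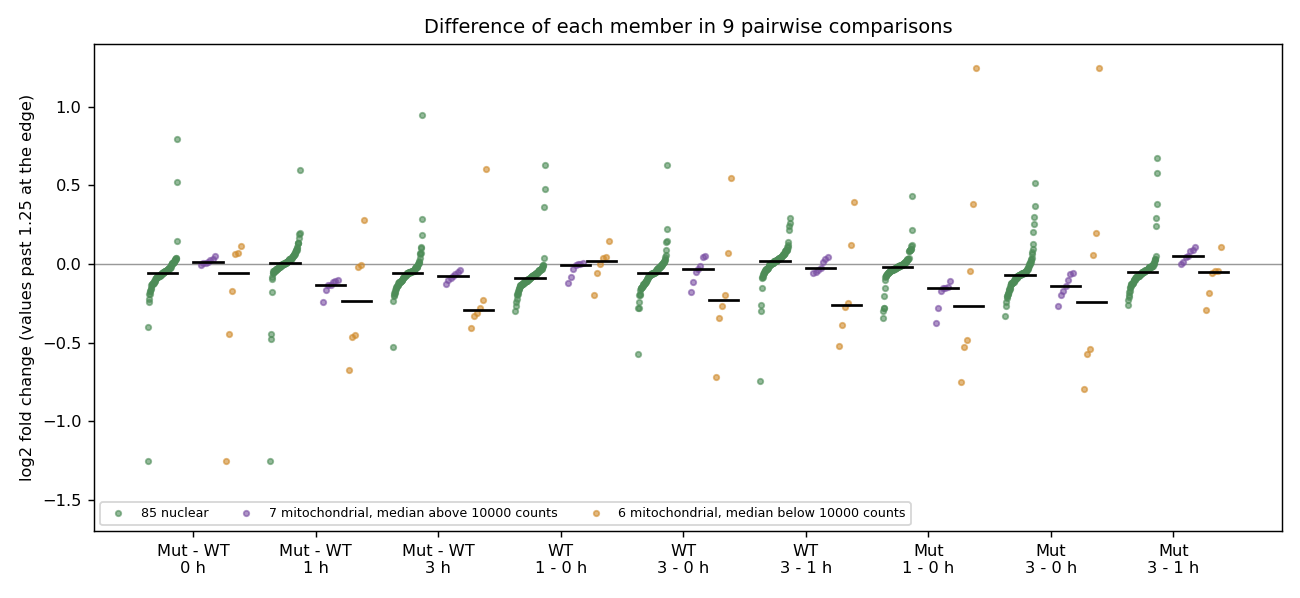
Log2 fold change of each tested member in the 9 pairwise comparisons, with the 85 nuclear members, the 7 abundant and the 6 low mitochondrial genes apart; black lines are medians points are ordered by value within each set, and the few values past the limit named on the axis sit at the edge. The abundant mitochondrial genes lie below 0 in mutants against WT at 1 h and in mutants from 0 to 1 h, and the nuclear members lie mostly below 0 in WT from 0 to 1 h.

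The difference between genotypes in the response to training was tested itself, as an interaction, and no member passed. For the 1 h response the interaction had a median of −0.15 over the mitochondrial and 0.05 over the nuclear members, with 73 of 85 nuclear members above 0. At an unadjusted p under 0.05, 3 nuclear members were higher and no mitochondrial member differed, where 1.49% of all genes were higher. These were Ndufc1 (0.26 ± 0.08), Cox6c (0.30 ± 0.13) and Ndufs7 (0.16 ± 0.07), with an adjusted p of 1.0 each (0% of all genes passed in edgeR, and no gene in DESeq2). Cox6c, for example, had 160 ± 21.7 CPM in naive WT mice and 137 ± 11.2 after 1 h, against 148 ± 21.5 and 157 ± 17.7 in mutants. For mt-Nd6 the interaction was −0.25 ± 0.14 (adjusted p = 1.0), so its response at 1 h was not shown to differ between genotypes. For the 3 h response the medians were −0.09 and −0.01, only mt-Atp8 (0.77 ± 0.36; adjusted p = 1.0) had an unadjusted p under 0.05, and 0% of all genes passed in edgeR and no gene in DESeq2.

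With both genotypes pooled, 3 nuclear members were lower 3 h after training, where 1.57% of all genes passed. They were Atp5j (chr16:84827871-84835857; −0.13 ± 0.03, adjusted p = 0.030), the ATP synthase subunit d gene Atp5h (chr11:115415691-115419919; −0.14 ± 0.03, adjusted p = 0.033) and Cox6b1, a subunit at the dimer interface of complex IV (chr7:30616971-30626114; −0.13 ± 0.03, adjusted p = 0.038). Atp5j stood at 109 ± 4.56, 102 ± 5.18 and 98.1 ± 3.16 CPM at 0, 1 and 3 h in WT and at 104 ± 5.71, 98.2 ± 7.39 and 96.7 ± 6.82 in mutants. Atp5h stood at 51.7 ± 2.58, 48.5 ± 4.21 and 47.4 ± 2.75 CPM in WT and at 51.1 ± 3.47, 49.4 ± 6.24 and 45.8 ± 3.11 in mutants. Cox6b1 stood at 135 ± 3.89, 125 ± 5.79 and 123 ± 5.19 CPM in WT and at 125 ± 6.34, 123 ± 8.44 and 116 ± 8.56 in mutants. Each was lowest at 3 h in both genotypes, by mean, and the 0 h and 3 h groups overlapped in WT and in mutants.

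These 3 calls lay close to the threshold. None of the 3 passed without WT 0 h male 1, mutant 0 h male 1, WT 3 h male 2 or mutant 3 h male 2, and 1 member passed without WT 0 h male 3, mutant 0 h male 2, mutant 0 h female 1, WT 3 h male 1 or WT 3 h female 3. Without mutant 0 h female 2, 6 passed. The calls over all genes moved as well: 281 genes passed with all libraries, between 142 and 173 in the fits with 0 members called, and 470 in the fit with 6. Atp5h shares 29.5% of its 100-base stretches with the pseudogene Gm10250, and 12.7% of the exon bases of Atp5j lie under Gabpa. In all, 30 of 85 nuclear members were lower and 2 higher at an unadjusted p under 0.05 (median −0.06, against −0.01 over all genes), where 7.05% of all genes were lower, and 5 of 13 mitochondrial members were lower (median −0.09). By complex the lower members were 14 of 40 in complex I, 0 of 3 in complex II, 3 of 8 in complex III, 5 of 17 in complex IV and 8 of 17 in ATP synthase. Of the cell type markers, 1 of 8 oligodendrocyte markers passed at 3 h, with a lower level, and its part was not tested.

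At 1 h with both genotypes pooled, 77 of 85 nuclear members were below their naive level (median −0.05) and 13 were lower at an unadjusted p under 0.05, where 5.64% of all genes were lower. Of the mitochondrial members 2 were (median −0.10). No member passed in edgeR, where 1.05% of all genes did, and Ndufb4c and mt-Nd6 passed in DESeq2. The first 3 were Ndufb4c (−0.29 ± 0.08; adjusted p = 0.074), mt-Nd6 (−0.25 ± 0.08) and Ndufv2, the iron-sulfur subunit of the NADH-oxidising module (−0.08 ± 0.03). Ndufb4c shares sequence with Ndufb4, which has 33.4% of its 100-base stretches in common with it, so reads of both may be mixed. The WT mean of Ndufb4c was 4.06 ± 0.532 CPM before and 3.32 ± 0.269 CPM after training, and the mutant mean 3.95 ± 0.466 and 3.25 ± 0.471 CPM.

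**Figure D5:**
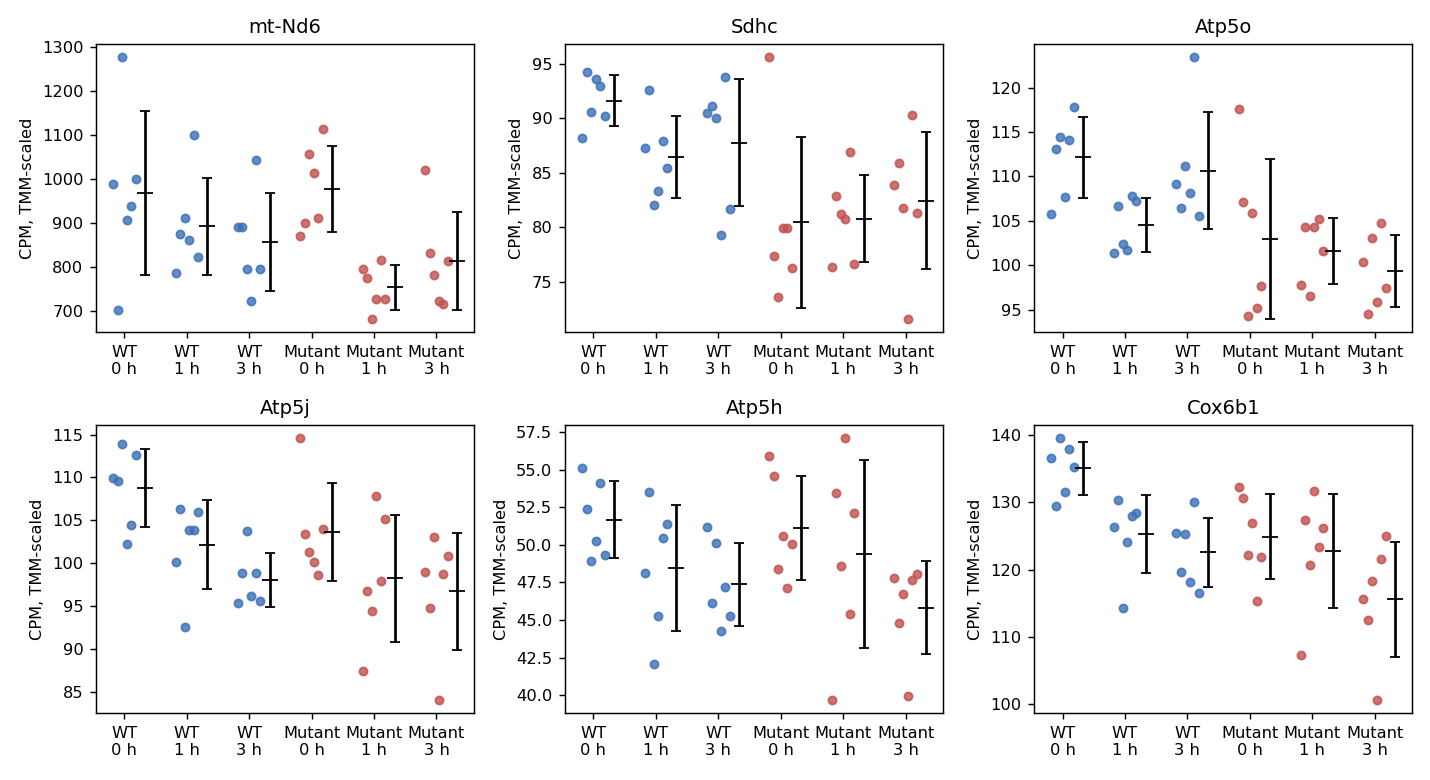
CPM of the 6 members that passed a comparison, by library (points), with the mean ± SD of each group of 6; axes do not start at 0. Sdhc and Atp5o have lower means in mutants at each time, and Atp5j, Atp5h and Cox6b1 have their lowest mean at 3 h in both genotypes.

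The promoters of the 3 genes that were lower at 3 h are shown because these members passed the same comparison in the same direction. Each is 300 bases of RefSeq sequence (GRCm38.p6), from 250 bases before the annotated start to 50 after it, on the minus strand of the chromosome and written 5′ to 3′. They lie at chr16:84834927-84835226 (Atp5j, 1 of its 2 entries), chr11:115419870-115420169 (Atp5h) and chr7:30626065-30626364 (Cox6b1). Capitals mark matches, on either strand, to the ETS motif of GABP (CCGGAAG), the NRF1 motif (GCGCA and GCGC with any base N between them) and the YY1 motif (AAGATGGCG). GABP, NRF1 and YY1 are transcription factors known to bind many genes of the respiratory chain.
Atp5j: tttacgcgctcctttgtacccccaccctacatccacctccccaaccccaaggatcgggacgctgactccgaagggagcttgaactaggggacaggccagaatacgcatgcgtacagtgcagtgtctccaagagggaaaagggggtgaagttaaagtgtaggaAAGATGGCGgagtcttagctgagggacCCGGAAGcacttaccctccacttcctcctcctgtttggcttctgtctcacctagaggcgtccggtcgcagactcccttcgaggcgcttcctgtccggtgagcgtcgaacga
Atp5h: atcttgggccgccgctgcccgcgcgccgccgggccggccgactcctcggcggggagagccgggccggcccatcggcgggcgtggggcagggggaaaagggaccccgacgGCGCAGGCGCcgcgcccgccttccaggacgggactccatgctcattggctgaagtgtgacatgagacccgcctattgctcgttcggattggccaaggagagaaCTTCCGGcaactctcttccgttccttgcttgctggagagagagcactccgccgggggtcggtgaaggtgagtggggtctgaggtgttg
Cox6b1: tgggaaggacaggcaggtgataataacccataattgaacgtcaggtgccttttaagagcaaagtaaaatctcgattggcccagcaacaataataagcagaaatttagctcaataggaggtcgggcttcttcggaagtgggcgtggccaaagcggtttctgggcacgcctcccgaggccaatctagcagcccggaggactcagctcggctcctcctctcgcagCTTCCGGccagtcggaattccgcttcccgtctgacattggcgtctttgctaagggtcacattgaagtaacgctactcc

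All 3 windows held the ETS letters, Atp5h also the NRF1 letters and Atp5j also the YY1 letters. For Atp5j this holds for the printed entry only. The ETS letters were in 17 promoter entries of 17 members and the YY1 letters in 7 entries of 7 members. The other Atp5j entry therefore held neither. Over the members, 70 had a promoter in the table. Of these, 24.3% held the ETS motif, against 13.3% of 16784 protein-coding genes, 24.3% the NRF1 motif against 7.42%, and 10% the YY1 motif against 2.22%. The TATA motif (TATAAA) was in 11.4% against 14.6%, the SP1 motif (GGGCGG) in 41.4% against 50.7%, the CRE motif (TGACGTCA) in 5.71% against 2.60%, and the E-box (CACGTG) in 8.57% against 9.17%. Both strands were searched and matches may overlap. A match is a run of letters and not a bound site.

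Genes that serve the chain without being subunits were read from fixed lists. Of 11 regulators of respiratory gene transcription, Pprc1, a coactivator related to PGC-1alpha, was higher at 1 h over both genotypes (0.16 ± 0.03; adjusted p = 0.020), and Ppargc1b, another of that family, did not pass (0.18 ± 0.06; adjusted p = 0.17). At 3 h no regulator passed, with Nrf1 at 0.13 ± 0.05 and Ppargc1a at −0.10 ± 0.04. Of 16 genes of mitochondrial transcription and replication, none passed: the polymerases Polg (0.13 ± 0.03; adjusted p = 0.053) and Polrmt (0.13 ± 0.04; adjusted p = 0.094) had the smallest p at 3 h. Of 45 tested assembly factors none passed, and 5 were lower and 1 higher in mutants over all times at an unadjusted p under 0.05, where 7.72% of all genes were lower, with Sdhaf2, which serves complex II, at −0.07 ± 0.02 (adjusted p = 0.11). None of 18 genes of mitochondrial RNA processing passed either. Among 11 carriers and uncoupling proteins, Ucp2 was at −0.40 ± 0.12 in mutants over all times (adjusted p = 0.076).

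No correlation from mouse to mouse was detected between subunits of the 2 genomes that work in the same complex. In 4 such pairs, chosen 1 per complex, the correlation of log2 levels after removal of the group means was r = 0.25 for mt-Nd1 and Ndufs1 (permutation p = 0.22; Spearman's rho = 0.20, p = 0.32), r = 0.07 for mt-Cytb and Cyc1 (p = 0.67; rho = 0.15, p = 0.40), r = 0.04 for mt-Co1 and Cox4i1 (p = 0.82; rho = 0.10, p = 0.59) and r = 0.11 for mt-Atp6 and Atp5b (p = 0.52; rho = 0.12, p = 0.50). The adjusted p over the 4 pairs was 0.82 for each r and 0.59 for each rho, in two-sided permutation tests within groups over 36 libraries. Without the 2 libraries farthest from the median of the mitochondrial gene, r was 0.10, 0.12, 0.02 and 0.00035. The chromosome 1 copy described above covers nearly all of mt-Atp6 and a part of mt-Co1. Their levels, and so their r, depend on how reads that fit more than 1 place were counted.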

How the data were processed

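RNA-seq counts from 36 dorsal hippocampus libraries were used. Per the labels and the study's methods, the authors aligned reads with RNA STAR 2.7.8a to mm10 and counted them per gene with featureCounts 2.0.1. The gene annotation, strand setting and treatment of multi-mapping reads are not given in the sources used here. Raw, unnormalized counts were deposited for 27179 gene identifiers, 25275 of which were named from RefSeq.

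The 14 comparisons used the package edgeR 4.0.16 under R 4.3.3, with limma 3.58.1: filterByExpr with a minimum count of 10, TMM scaling, robust quasi-likelihood F-test, sex as labelled as a covariate, and Benjamini-Hochberg adjustment over all genes, with a threshold of 0.05. The 9 pairwise fits used 12 libraries each, the interactions and pooled time comparisons 24, and the pooled genotype comparison 36. The SE is the log2 fold change divided by the square root of F. Levels are TMM-scaled CPM, with a prior count of 2 for log2 values. Exon lengths and overlaps came from the GENCODE annotation of GRCm38, and promoters from RefSeq GRCm38.p6. Copies were searched as exact 100-base stretches of annotated transcripts. Pair correlations used 100000 permutations. Fits were tested on simulated data.

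Alternatives were RLE and upper quartile scaling, other filters, DESeq2 1.42.0, no sex covariate, all libraries in 1 fit, mitochondrial genes left out of the scaling, a replicate block, and leaving out each library. Named were all mitochondrial members, core subunits and isoforms, members that passed, and the 3 members with the smallest p per comparison. Ndufs5, Atp5l and the other nuclear members named outside this rule were chosen after their values were seen. Members and lists were chosen with earlier results of these data known. Libraries of the same group were compared in 90 pairs, and none held the same counts. At 40274435 to 107000233 counts per library, counting error is small for members with over 1000 counts, and the limit for a count of 0 covers counting error only. The 8 libraries of another cohort, the columns of the authors' own comparisons and protein sequences were not used here.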

Additional observations from a re-analysis of the deposited data

Results flagged for a closer look

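In 132 groups of 6 libraries, 9 had a library that stood apart from the other 5 by Dixon's criterion, where chance flags about 1 in 20 groups. mt-Atp8 was at 0.267 CPM in WT 3 h female 1, against 0.431 to 0.561 in the rest of its group. mt-Nd3 was at 44.6 CPM in mutant 0 h male 2, against 1.64 to 3.09, and is the only naive mutant in the higher of the 2 ranges of this gene.

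Mutant 0 h male 1 stood apart for 2 members that passed a comparison: Sdhc was at 95.6 CPM, against 73.6 to 80.0, and Atp5j at 114.6 CPM, against 98.6 to 104.0. Atp5o was at 123.4 CPM in WT 3 h female 2, against 105.6 to 111.1, and Cox6b1 at 114.3 CPM in WT 1 h male 3, against 124.2 to 130.4.

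Ndufs5 stood apart in 3 libraries of its lowest range, at 2.03 CPM in WT 1 h male 3, 2.05 in mutant 0 h female 2 and 1.93 in mutant 1 h male 2. These were the only libraries of that range in their groups.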

How the results depend on the processing

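The medians, sums and calls kept their direction under most alternatives. By DESeq2, members called numbered 1 (Atp5j) in WT from 0 to 3 h, 4 in mutants from 0 to 1 h, 2 in mutants from 0 to 3 h, 5 in genotype over all times, 2 for 1 h over both genotypes and 8 for 3 h over both genotypes, where DESeq2 called 74, 370, 145, 561, 426 and 737 of all genes. Where it called no member, it called 14, 111 and 47 genes for genotype at 0, 1 and 3 h, 8 and 65 in WT from 0 to 1 h and from 1 to 3 h, 73 in mutants from 1 to 3 h and 0 for both interactions. The call of mt-Nd6 in mutants from 0 to 1 h gave way to 0 members with all 36 libraries in 1 fit and 0 with the replicate block, and 0 to 1 with 1 library left out. With the mitochondrial genes left out before scaling they were not tested, so the count there is 0 by construction. Leaving out 1 library gave 0 to 1 members for genotype at 0 h, where 0 to 5 of all genes were called. It gave 0 to 6 for 3 h over both genotypes, where the calls over all genes moved as given above. For genotype over all times it gave 1 to 4, against 2 members and 237 genes with all libraries. The counts over all genes in those fits are not given here, so the 1 to 4 are not read as a change of the members. Without the 2 libraries against their sex label, an alternative chosen after seeing the data, genotype over all times had 4 members and 507 genes called, against 237 genes with all libraries, and 3 h over both genotypes had 4 members and 529 genes, against 281. No source states that the numbers in the sample titles pair the mice. Over 90 pairs of the same sex and number the correlation of deviations was −0.241 to 0.310 (median 0.071), and 38 exceeded 0.1. Over 180 pairs of the same sex and another number the median was 0.038, and 46 exceeded 0.1. As not every pair exceeded 0.1, the numbers were not taken to pair the mice. The replicate block gave 2 members in genotype over all times and 4 for 3 h over both genotypes. The main fits gave 2 and 3 members, where 237 and 281 of all genes were called. The counts over all genes under the block are not given here, so the 4 are not read as a change of the members. The percent of counts on mitochondrial genes in mutants from 0 to 1 h moved from −0.173 to −0.0557 as a mean of log2 levels. Differences near 0 of 2 low mitochondrial genes changed sign. mt-Nd4l in genotype at 1 h was −0.0069, and 0.021 with the replicate block. With 1 library left out it was −0.162 to 0.304 there, and −0.0922 to 0.604 in mutants from 0 to 3 h. mt-Atp8 was −0.134 to 0.129 in genotype at 1 h, −0.178 to 0.104 in mutants from 0 to 1 h and −0.126 to 0.190 in mutants from 0 to 3 h. Among the medians, with 1 library left out, that of the mitochondrial members was −0.0414 to 0.116 in genotype at 0 h, −0.0815 to 0.0808 in WT from 0 to 1 h, −0.119 to 0.044 in WT from 0 to 3 h, −0.0659 to 0.0106 in WT from 1 to 3 h and −0.0345 to 0.0482 in mutants from 1 to 3 h. That of the nuclear members was −0.013 to 0.0272 in genotype at 1 h, −0.0401 to 0.0126 in mutants from 0 to 1 h and −0.0013 to 0.0369 in WT from 1 to 3 h. Several small differences of the sums changed sign too, such as the percent of counts on mitochondrial genes in WT from 0 to 1 h (−0.0692 to 0.0616). The cause was not tested.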
